A study of Rattus norvegicus with 183 samples.

Results

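A set of 8 genes of sterol and fatty acid synthesis, Scd2, Fasn, Hmgcs1, Sqle, Insig1, Idi1, Fdft1 and Lss, was followed through brain tissue of outbred rats, and all 8 were found by symbol among the 38354 genes of the expression table. All 8 also passed the filter on low values that left 15536 genes (a mean of at least 1 on the log2(CPM + 1) scale, CPM being counts per 1e6 counts of the library). The genes were picked by name and not by a cut on a measured value, though with earlier results of these data known. Their levels, their correlation with one another and with 28 other genes of the same pathways, and their relation to myelin, astrocyte and neuron genes are described below.

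Cholesterol is made in the cell from acetyl-CoA through mevalonate, isoprenoid units, squalene and lanosterol, and fatty acids are made from the same acetyl-CoA. The transcription factors SREBP-1 and SREBP-2, encoded by Srebf1 and Srebf2, switch on many of these genes together when membrane cholesterol is low, after the escort protein SCAP has carried them from the endoplasmic reticulum to the Golgi. The adult brain makes its own cholesterol because lipoproteins of the blood hardly cross the blood-brain barrier, and most of it lies in myelin, the lipid sheath that oligodendrocytes wrap around axons. Astrocytes also make sterols and hand them to neurons on apolipoprotein E.

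The sequenced material was polyA RNA of the posterior ventral tegmental area, where many dopamine neurons of the midbrain lie. Of 183 samples described, 31 were labelled as removed and not used here, and all others had values. No treatment, genotype, sex or age is given, so each library stands for an outbred laboratory rat, and the identifier in the sample title (hexadecimal in 88, decimal in 63, another form in 1) is the one label, besides notes on relabelling, that divides them. Libraries held 15.2 to 57.2 M estimated counts (M stands for 1e6, median 24.3), and each of the 8 genes had at least 417 estimated counts in every library.

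The label of the tissue did not hold for every library. Th, the gene of the rate-limiting enzyme of dopamine synthesis, had 1.33 to 3.47 CPM in 11 libraries (1 hexadecimal, 10 decimal) and 577 to 3934 CPM in all others (87 hexadecimal, 53 decimal, 1 other). The 11 low-Th libraries also had 1833 to 2040 CPM of Slc17a7, the vesicular glutamate transporter gene of cortical neurons, against 0.16 to 1064 CPM (median 4.02, and over 100 CPM in 6) in these Th libraries, and at most 2432 CPM of the myelin gene Mbp, against at least 8524 CPM. Because these sets were separated by a measured value, the low-Th libraries are described with no test, and all fits use the Th libraries. In tissue pieces such as these, fewer cells of a type and less RNA per cell cannot be told apart.

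All 8 genes had a lower median in the low-Th libraries than in the Th libraries, and for 5 of them the ranges did not overlap. Across all tested genes, 10.2% lay lower with no overlap and 8.87% higher. Hmgcs1 (chromosome 2, position 53379457, with positions as deposited and no build named in the files or labels) encodes the synthase that makes HMG-CoA, an early step of the route. It had 328 CPM as the lowest, 354 CPM as the median and 395 CPM as the highest of the low-Th libraries, and 274, 427 and 604 CPM in the Th libraries. All 11 low-Th libraries lay within the range of the Th libraries, which made Hmgcs1 the member with the smallest gap, with a mean log2 difference of -0.22. Idi1 (chromosome 17, position 66547524), the isomerase gene for isoprenoid units, had 22.7, 26.4 and 33.0 CPM in the low-Th libraries and 31.2, 56.5 and 93.2 CPM in the Th libraries. The 2 sets met at a single Th library, and the mean log2 difference was -1.03.

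Fdft1 (chromosome 15, position 41616168) encodes squalene synthase, the first enzyme committed to sterols. Its lowest, median and highest levels were 87.97, 98.96 and 114.9 CPM in the low-Th libraries and 133.6, 199 and 289 CPM in the Th libraries, with no overlap and a mean log2 difference of -1.004. Sqle (chromosome 7, position 92758175), the gene of squalene epoxidase, had 61.2, 68.5 and 73.5 CPM in the low-Th libraries and 77.3, 115.6 and 165.6 CPM in the Th libraries. No low-Th library reached the lowest Th library for this gene either, and the mean log2 difference was -0.76. Lss (chromosome 20, position 12118230), whose product closes the rings of lanosterol, had 25.2, 41.9 and 49.6 CPM in the low-Th libraries against 51.1, 87.2 and 127.6 CPM in the Th libraries. The highest low-Th library came close to the lowest Th library, and the mean log2 difference was -1.18.

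Insig1 (chromosome 4, position 8057812) encodes the membrane protein that holds SCAP back when sterols are plentiful and is itself an SREBP target. Its level was 99.2, 109.1 and 126.8 CPM in the low-Th libraries and 147.6, 243 and 325 CPM in the Th libraries, separate ranges with a mean log2 difference of -1.10. Fasn (chromosome 10, position 106588581), the gene of the enzyme that builds palmitate, had 220.3, 251 and 293 CPM in the low-Th libraries and 251, 432 and 556 CPM in the Th libraries. Here 9 Th libraries lay at or below the highest low-Th library, and the mean log2 difference was -0.72. Scd2 (chromosome 1, position 253118377), a desaturase that puts the double bond into stearate and palmitate and is known from mouse as the main brain form, had 1686, 1889.8 and 2079 CPM in the low-Th libraries against 3675, 5066 and 6574 CPM in the Th libraries. Its gap was the widest of the 8 at a mean log2 difference of -1.41.

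**Figure D1:**
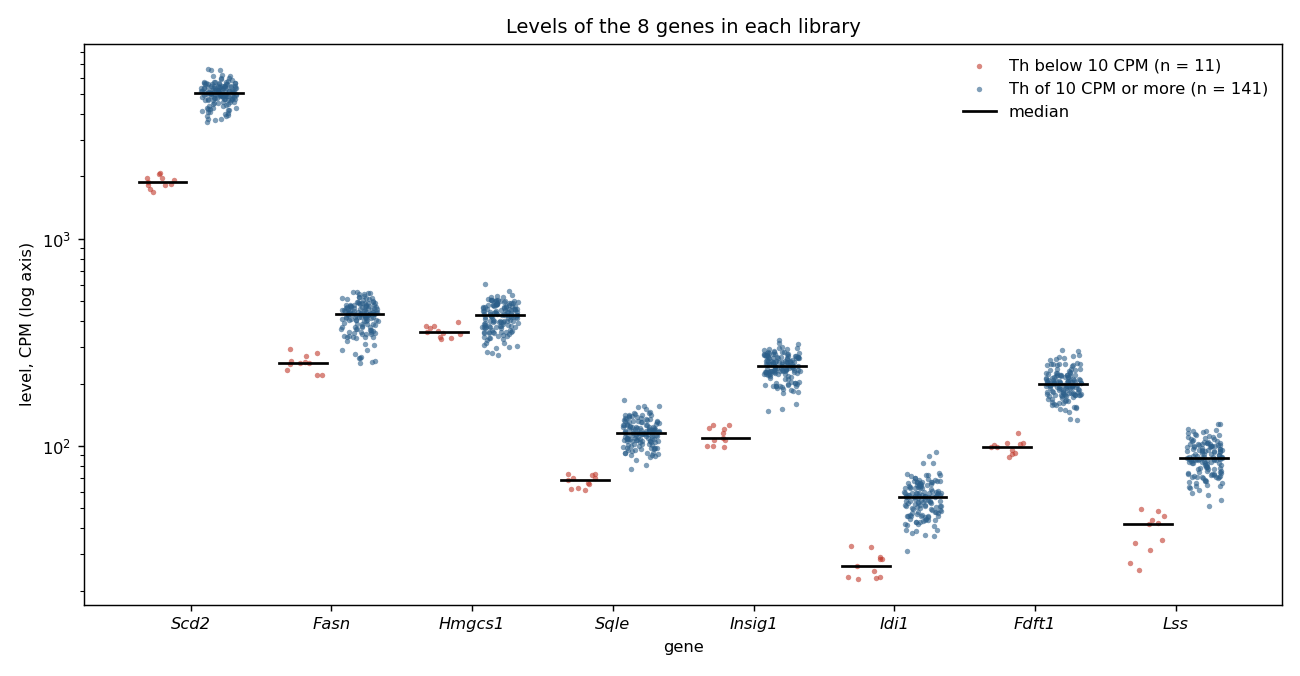
Level of each gene in CPM on a log axis, 1 point per library, with the 11 low-Th libraries (red) left of the Th libraries (blue) and a bar at each median. Scd2, Sqle, Insig1, Fdft1 and Lss show an empty interval between the sets, Idi1 nearly so, and Fasn and Hmgcs1 overlap.

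The median difference of the 8 genes was -1.02 log2 units, beside a median of -0.14 over all tested genes. When libraries were scaled by the median of ratios instead of the total, the median over all genes was -0.01 and the members had differences from -0.07 (Hmgcs1) to -1.26 (Scd2), but Scd2 alone kept separate ranges, with 8.37% of all genes lower and 11.5% higher without overlap. Under that scaling 1 Th library met the low-Th range for Insig1 and for Lss, 2 for Idi1 and Fdft1 and 3 for Sqle. Among decimal identifiers alone, 6 of 8 lay lower without overlap, beside 16.4% of all genes lower and 11.4% higher. The nearest libraries on either side of the split were 1 with 3.47 CPM of Th and 2059 CPM of Scd2, and replicate 93 with 577 CPM of Th and 5472 CPM of Scd2.

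Of the 16 other sterol synthesis genes, 4 were lower in the low-Th libraries without overlap, among them Mvk, Ebp and Sc5d, and 0 were higher, with a median difference of -0.65. Of the 12 other fatty acid synthesis genes, 5 were lower without overlap (Me1, Slc25a1, Scd, Elovl1 and Elovl5), with a median of -0.96. Elovl1, an elongase for very long chains, was among them with 11.4 to 21.8 CPM in the low-Th libraries and 59.5 to 145.1 CPM in the Th libraries. None of the 6 SREBP machinery genes was separate, and Srebf2 had a median of 273 CPM in the low-Th libraries against 214 CPM in the Th libraries. Cyp46a1, whose product turns cholesterol into the form that leaves neurons, went the other way from the synthesis genes, with 247 to 300 CPM in the low-Th libraries and 48.9 to 103.1 CPM in the Th libraries. All 12 myelin genes were lower without overlap, with a median of -3.09 log2 units, and all 5 tested cortical neuron genes were higher, by a median of 6.05. The part of cell type in the lower synthesis genes was not tested.

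Within the Th libraries the 8 genes varied moderately. The SD between libraries was 0.17 log2 units for Scd2, 0.21 for Sqle and Insig1, 0.22 for Fdft1 and Hmgcs1, 0.25 for Fasn, 0.26 for Lss and 0.27 for Idi1. Of the 6481 genes with a mean of at least 5 on the same scale, 28.4% had a smaller SD than Scd2 and 71.5% a smaller SD than Idi1. The highest library exceeded the lowest 1.79 times for Scd2 and 2.99 times for Idi1. High and low libraries were not the same for all members. The library highest for Idi1, with 93.2 CPM, also had high Hmgcs1 (536 CPM) and Insig1 (312 CPM), whereas replicate 97, the highest for Fdft1 with 289 CPM of it, had low Hmgcs1 (281 CPM) and Idi1 (37.3 CPM). Replicate 73 was the lowest for both Fdft1 (133.6 CPM) and Lss (51.1 CPM), and another library the lowest for both Fasn (251 CPM) and Hmgcs1 (274 CPM).

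Whether the 8 genes rise and fall together between animals was asked with 1 fit per gene, in which that gene, standardised, predicted the log2 level of all other genes with identifier format as a covariate (limma, two-sided, Benjamini-Hochberg over all genes, threshold 0.05). Among the 56 ordered pairs, 37 were called higher, 4 lower and 15 not called. In these fits pooled, 27994 of 124280 slopes over all genes were called higher and 35564 lower. The 28 Pearson correlations ranged from -0.24 (Fasn with Fdft1) to 0.86 (Sqle with Fdft1), with a median of 0.30, and 26 were positive. Replicates here are libraries of separate identifiers, and p-values measure the spread between them.

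The closest relation joined Sqle, Fdft1 and Insig1. Sqle and Fdft1, neighbours on the route through squalene, correlated at r = 0.86 (Spearman rho 0.84, permutation p = 1e-05 for each, the smallest that 100000 permutations can give), and at 0.85 when the 2 libraries with the most extreme Sqle were left out. It was 0.86 within hexadecimal and 0.87 within decimal libraries. Fdft1 rose by 0.18 ± 0.01 log2 units (SE) per SD of Sqle (limma adjusted p = 2.1e-38). Insig1 correlated with Sqle at 0.67 and with Fdft1 at 0.67, and each of these relations was also called (adjusted p = 3e-17 for Insig1 on Sqle and 2.3e-18 for Insig1 on Fdft1). In the fit on Sqle 22.6% of all genes were called higher and 48.8% lower, on Fdft1 23.7% and 50.1%, and on Insig1 16.6% and 38.9%.

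A second close relation joined Hmgcs1 and Idi1, the early enzymes, with r = 0.75 (rho 0.75, permutation p = 1e-05 for each, 0.73 without the 2 farthest libraries). It was 0.74 in hexadecimal and 0.74 in decimal libraries, and Idi1 rose by 0.20 ± 0.02 log2 units (SE) per SD of Hmgcs1 (limma adjusted p = 7.2e-23). Hmgcs1 also correlated with Fasn at 0.57 and with Scd2 at 0.56. Scd2, the desaturase, was called higher with all members but Fdft1, for which r was 0.08. In the fit on Hmgcs1 34.3% of all genes were called higher and 24.8% lower, on Idi1 24.3% and 19.3%, and on Scd2 12.1% and 19.2%. Insig1 lay between these sets, with r = 0.44 to Hmgcs1 and 0.54 to Idi1.

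Between the sets the relations were weak or opposite. Hmgcs1 and Fdft1 correlated at 0.01 and Idi1 and Fdft1 at 0.04, neither of them called. Fasn fell with Sqle (r = -0.21) and with Fdft1 (r = -0.24), by 0.048 ± 0.021 and 0.050 ± 0.021 log2 units (SE) per SD (limma adjusted p = 0.03 and 0.029), the 4 lower calls being these pairs read both ways. In the fit on Fasn 44.4% of all genes were called higher and 26.7% lower. Lss stood apart in having weak relations to all genes, its highest r with any being 0.40. In the fit on Lss 2.19% of all genes were called higher and 1.11% lower, yet 5 of the other 7 members were among the higher ones. Hmgcs1 rose by 0.079 ± 0.017 (SE) and Fasn by 0.081 ± 0.020 (SE) log2 units per SD of Lss (limma adjusted p = 0.0065 and 0.015).

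**Figure D2:**
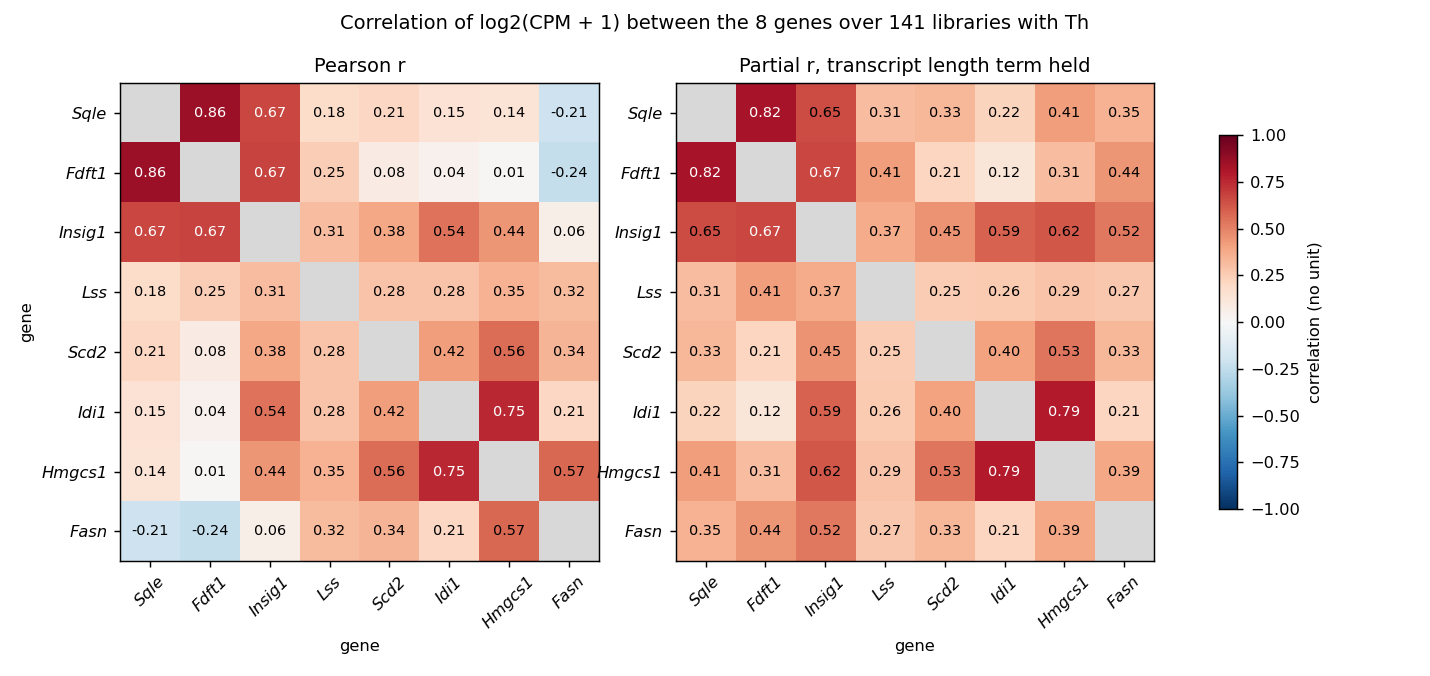
Pearson correlations (no unit) of log2(CPM + 1) between the 8 genes over the Th libraries, red positive and blue negative. They are shown as measured (left) and with a transcript length term, chosen after the correlations were seen, held (right). Left, Sqle, Fdft1 and Insig1 form a block from 0.67 to 0.86 and Fasn is negative with Sqle and Fdft1; right, all 28 values are positive, from 0.12 to 0.82.

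Promoter sequence was at hand for 5 of the 8 genes (Scd2, Hmgcs1, Insig1, Idi1 and Lss) in the RefSeq table of build GRCr8. The 250 bases before the RefSeq start were searched on both strands for 4 motifs. For Hmgcs1 and Insig1 this start is not the deposited position given above. SREBPs are known to need a helper such as NF-Y, which binds CCAAT, or Sp1, which binds GGGCGG. The CCAAT string was present in all 5, beside 34.0% of the 33469 promoters of the table, and GGGCGG in 3 of 5, beside 30.5%. The sterol regulatory element was written as TCACNCCAC or, 1 base shorter and contained in it, TCACNCCA. Neither letter string occurred in the 5 windows, and they are in 0.974% and 3.24% of all promoters. Among the 28 synthesis genes found in the promoter table, these 5 members included, 21 held CCAAT, 20 GGGCGG and 1 TCACNCCA. A match is a string of letters and not a measured site, and no match says only that these letters are absent from the window. Hmgcs1 (chr2:53382054-53382303, plus strand) and Idi1 (chr17:66547525-66547774, minus strand) are printed because they were the most closely correlated pair in the table, and Insig1 (chr4:8057770-8058019, minus strand) because it correlated with both sets. Capitals mark CCAAT, or ATTGG where it lies on the other strand, and sequences run 5′ to 3′.
Hmgcs1: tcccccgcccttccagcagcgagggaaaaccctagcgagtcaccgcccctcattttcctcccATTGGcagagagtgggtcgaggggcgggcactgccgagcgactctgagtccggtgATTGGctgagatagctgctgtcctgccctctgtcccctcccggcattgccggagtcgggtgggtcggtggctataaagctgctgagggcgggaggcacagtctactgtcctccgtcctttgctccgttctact
Idi1: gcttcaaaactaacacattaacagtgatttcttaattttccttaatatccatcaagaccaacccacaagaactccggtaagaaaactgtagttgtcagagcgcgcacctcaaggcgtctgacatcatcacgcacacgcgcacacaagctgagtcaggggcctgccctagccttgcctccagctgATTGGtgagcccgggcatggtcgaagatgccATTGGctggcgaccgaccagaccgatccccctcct
Insig1: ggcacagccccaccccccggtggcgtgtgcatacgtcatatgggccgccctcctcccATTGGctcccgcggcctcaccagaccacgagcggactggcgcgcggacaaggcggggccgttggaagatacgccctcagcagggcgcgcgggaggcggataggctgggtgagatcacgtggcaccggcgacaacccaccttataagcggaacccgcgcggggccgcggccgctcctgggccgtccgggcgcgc

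A property shared by many genes moved with several members and is given beside them. As a measure chosen after these correlations were seen, the mean log2 level of 15 genes with very long coding sequences (such as Dync1h1 and Huwe1) minus that of 15 with short ones (such as Cox7c and Ndufa4, most of them respiratory chain subunits) was taken as a transcript length term. It ranged from -0.53 to 2.05 over the Th libraries, with a median of 1.26 in hexadecimal and 1.33 in decimal libraries, and was below 0 in 8. Of all genes 50.6% rose and 27.3% fell with it (limma). Fasn followed it at r = 0.87 (0.89 in hexadecimal, 0.80 in decimal libraries) and 76.1% of its variance was shared with the term. Hmgcs1 followed it at 0.46, while Sqle and Fdft1 ran against it at -0.42 and -0.49. For Scd2, Idi1, Lss and Insig1 the r lay between -0.22 and 0.22.

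Levels at the ends of the term are given as values, with no test. In the 14 Th libraries with the highest term Fasn had 411, 476 and 556 CPM as lowest, median and highest, against 251, 284 and 352 CPM in the 14 with the lowest. These ranges did not overlap. The libraries were ranked by the term that Fasn follows, and the share of all genes so separated was not counted. Fdft1 had 133.6, 184 and 209 CPM in the 14 with the highest term and 174, 246 and 274 CPM in the 14 with the lowest, with overlap. Idi1 had medians of 49.5 and 49.5 CPM. In single libraries, replicate 37, with the highest Fasn of all (556 CPM) and a term of 2.05, had 195 CPM of Fdft1, whereas the library with the lowest Fasn (251 CPM), whose term was -0.13, had 249 CPM of Fdft1.

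With the transcript length term as a further covariate, 53 of the 56 ordered pairs were called higher and 0 lower. In those fits pooled, 15.0% of all genes were called higher and 26.6% lower. All 28 partial correlations were then positive, from 0.12 (Idi1 with Fdft1) to 0.82 (Sqle with Fdft1), with a median of 0.38. Because the term was chosen after the correlations were seen, these values are no independent test of a shared program. A single slope on the term was held for both formats. Its r was -0.54 to Sqle and -0.58 to Fdft1 in hexadecimal libraries, but 0.05 and -0.03 in decimal ones. Fasn and Fdft1, negative before, had a partial r of 0.44, and Fdft1 rose by 0.18 ± 0.03 log2 units (SE) per SD of Fasn (limma adjusted p = 6e-07). Fasn and Insig1 had a partial r of 0.52, against an r of 0.06. Without the 8 libraries whose term was below 0, 39 pairs were called higher and 0 lower, beside 19.6% and 28.7% of all genes in those fits pooled. Under scaling by the median of ratios 48 were called higher and 0 lower, beside 25.5% and 26.1%. That scaling sets the median gene ratio of each library to the same value, so a near-even split of calls is largely built into it. Of the genes called, 49.6% were higher with Scd2, 50.4% with Fasn, 48.2% with Sqle, 49.7% with Insig1, 48.1% with Fdft1 and 46.2% with Lss. Scaled to the total, the shares were 38.8%, 62.4%, 31.7%, 29.9%, 32.1% and 66.4% in the same order. With the 3 cell type scores as covariates instead, 28 pairs were called higher and 0 lower, while 21.0% of all genes were called higher and 20.3% lower in those fits pooled. Partial r was then 0.70 for Sqle with Fdft1 and 0.67 for Hmgcs1 with Idi1.

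Some relations differed between the identifier formats, in a test of the slope difference also added after the correlations were seen. Of the 28 pairs, each with the gene named first in the list of members as predictor, 9 differed (limma, adjusted p under 0.05). Over the fits on all 8 genes, Lss included though it predicts no pair, 21.4% of all genes differed. Hmgcs1 and Sqle correlated at -0.01 in hexadecimal but 0.78 in decimal libraries, a difference in the slope of Sqle of -0.17 ± 0.04 log2 units (SE) per SD of Hmgcs1 (adjusted p = 0.00077). Hmgcs1 and Fdft1 correlated at -0.11 in hexadecimal and 0.73 in decimal libraries (-0.18 ± 0.04, SE, limma adjusted p = 0.00052). Fasn and Fdft1 correlated at -0.36 in hexadecimal and 0.36 in decimal libraries, so the sign of the pooled value of -0.24 is that of the hexadecimal libraries and not of the decimal ones. Of the 9 differences, 8 were lower slopes in hexadecimal libraries. Of all 15535 genes, 3692 had higher and 2081 lower slopes there on Fasn, 3505 and 1834 on Hmgcs1, and 3536 and 1507 on Idi1. On Sqle these were 1460 and 3495, and on Fdft1 1420 and 4125. The relation of the length term to these genes also differed, with r of -0.54 to Sqle and -0.58 to Fdft1 in hexadecimal libraries and 0.05 and -0.03 in decimal ones. Among decimal libraries alone 27 of 28 r were positive, with a median of 0.40, and among hexadecimal ones 23 of 28, with a median of 0.35.

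**Figure D3:**
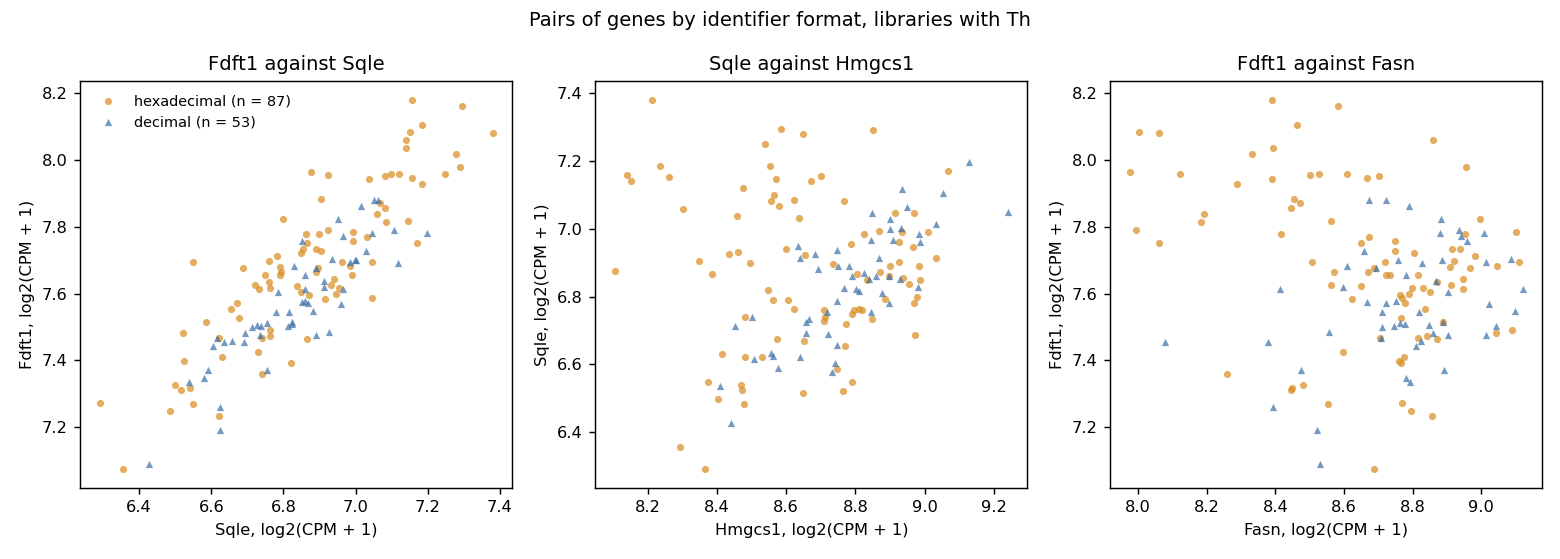
Levels in log2(CPM + 1) of Fdft1 against Sqle, Sqle against Hmgcs1 and Fdft1 against Fasn, 1 point per Th library, hexadecimal identifiers as orange circles (87) and decimal ones as blue triangles (53). The first pair lines up in both formats (r = 0.86 and 0.87), whereas the second rises in decimal libraries (0.78) and not in hexadecimal ones (-0.01).

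The other genes of sterol synthesis followed Sqle, Fdft1 and Insig1. Of 16, 15 were called higher and 0 lower with Sqle, 14 and 0 with Fdft1, and 16 and 0 with Insig1. With each of these 3, 14 were called. Of all genes, 22.6% were called higher and 48.8% lower with Sqle, 23.7% and 50.1% with Fdft1, and 16.6% and 38.9% with Insig1. Acat2, the thiolase gene that opens the route, correlated with Fdft1 at 0.88, Fdps, which makes farnesyl diphosphate, at 0.88, Nsdhl at 0.85 and Msmo1, which removes methyl groups from lanosterol, at 0.81. With Hmgcs1, 7 were called higher and 1 lower, beside 34.3% and 24.8% of all genes. Cyp51, the lanosterol demethylase gene, led these with an r of 0.83, and Sc5d had 0.79. Fasn had 5 higher and 8 lower, beside 44.4% and 26.7% of all genes. Ebp, an isomerase gene late in the route, had r = -0.58 to Fasn. With the length term held, 14 of 16 were called higher with Fasn and 0 lower, beside 1789 of 15535 genes higher and 4132 lower in that fit.

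Of the 12 other fatty acid synthesis genes, 7 were called higher and 2 lower with Fasn, beside 44.4% and 26.7% of all genes. With Scd2, 10 were called higher and 0 lower, beside 12.1% and 19.2% of all genes. Acaca, whose product makes the malonyl-CoA used by fatty acid synthase, followed Fasn at 0.88 and Acly, which supplies cytosolic acetyl-CoA, at 0.86. Scd2 was joined by the desaturase genes Fads2 at 0.60, Fads1 at 0.57 and Scd at 0.56. Scd and Scd2 are related genes close to each other on chromosome 1, and reads shared by them cannot be assigned with certainty. Slc25a1, the gene of the citrate carrier that feeds the cytosol, went with Fdft1 at 0.78 and against Fasn at -0.49.

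**Figure D4:**
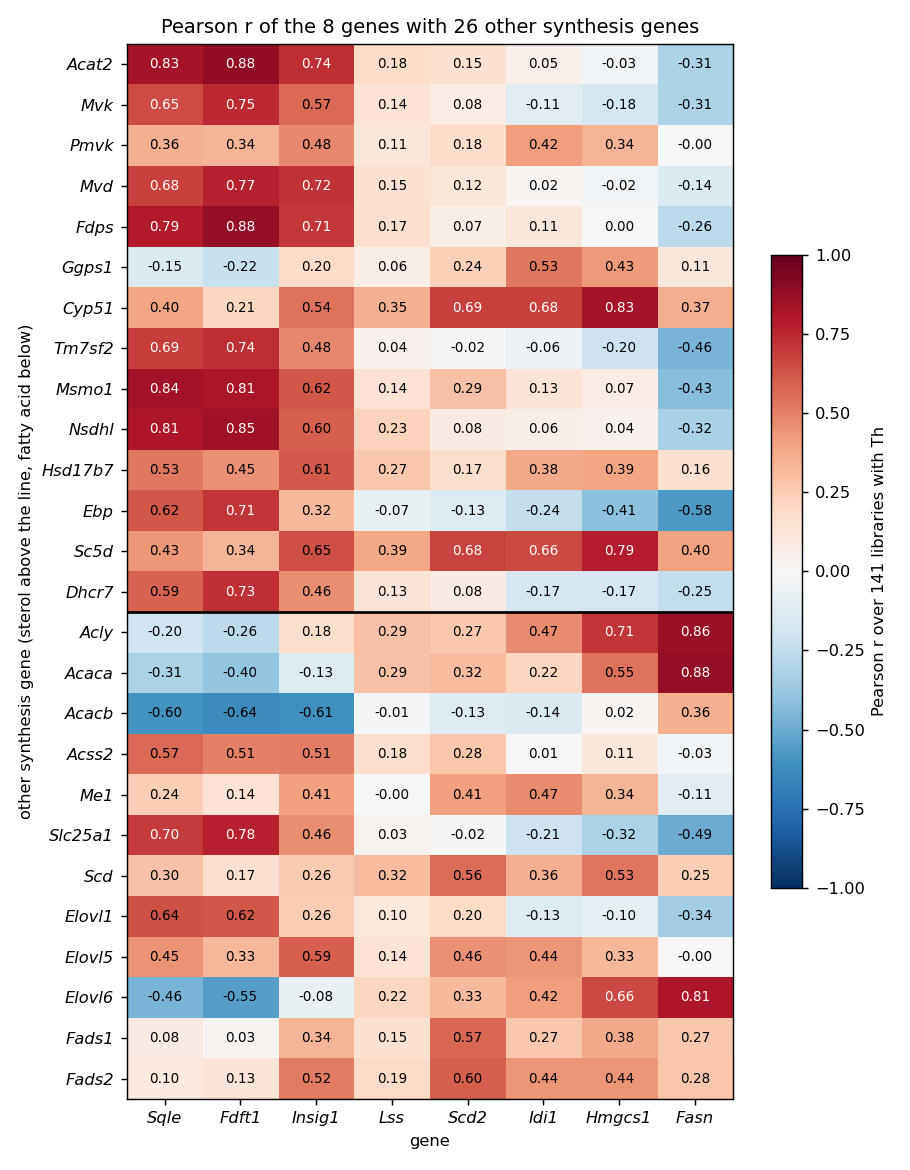
Pearson r over the Th libraries of the 8 genes (columns) with 14 of the 16 other sterol and all 12 other fatty acid synthesis genes (rows, divided by a line), red positive and blue negative. Most sterol rows are red under Sqle, Fdft1 and Insig1, for example Acat2 at 0.83, 0.88 and 0.74, while Cyp51 and Sc5d are red under Hmgcs1, Idi1 and Scd2 and Acaca and Acly under Fasn.

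The genes that govern the program did not follow it as a set. Srebf2, the SREBP gene tied to sterol synthesis, correlated with the 8 members between 0.03 (Sqle) and 0.23 (Fasn). Srebf1, tied to fatty acid synthesis, reached 0.50 with Fasn and -0.54 with Sqle. Of the 6 SREBP machinery genes, 5 were called higher and 0 lower with Fasn, beside 44.4% and 26.7% of all genes. With Sqle, 1 was called higher and 4 lower, beside 22.6% and 48.8%. Stard4, a sterol carrier gene, followed Insig1 at 0.70. Among the 8 genes of sterol removal, 6 were called lower and 0 higher with Sqle, and 6 lower and 2 higher with Fdft1. In the fit on Fdft1, 50.1% of all genes were called lower and 23.7% higher. Abca1, the cholesterol exporter gene, had r = -0.70 to Sqle and to Fdft1, and Apoe -0.61 to Sqle and -0.52 to Fdft1. With the astrocyte score described below, 6 of these 8 rose and 1 fell, beside 51.1% of all genes higher and 21.8% lower.

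Over the Th libraries the genes nearest to each member were ranked by Pearson r among all tested genes outside the 8. The 28 other synthesis genes, out of all 15536 tested genes, were 4 of the 5 nearest to Sqle and 3 of the 5 nearest to Fdft1. Of the 50 nearest they were 9 for Fdft1, 7 for Sqle and for Insig1, and 4 for Hmgcs1 and for Lss. For Scd2, Fasn and Idi1 they were 2 each. The nearest to Sqle were Msmo1 (0.84), Acat2 (0.83), Nsdhl (0.81), Fdps (0.79) and the neuronal growth gene Stmn2 (0.77), and to Fdft1 Acat2 (0.88), Fdps (0.88), Nsdhl (0.85), Stmn2 (0.83) and Mrap2 (0.83). For Hmgcs1 they were Cyp51 (0.83), Sc5d (0.79), Plcl1, Eps15 and Anks1b (0.77 to 0.76). Insig1 had Cpeb1 (0.77), Ostm1, Acat2 (0.74), Kcns3 and Rbm11, and Idi1 had Tmem30a (0.83), Klhl4, Septin7, Eif1a and Ube2v2. Those of Scd2 were Otud7b (0.77), Lpar1, Pik3r1, Eml1 and Tgfa (0.70). Fasn was nearest to Kif1a (0.89), Acaca (0.88), Dync1h1 (0.88), Mcm3ap and Atg2b (0.87), and Dync1h1 is itself one of the long genes of the length term. Lss was nearest to Garem1 (0.40), Syt11, Nrip3, Sc5d (0.39) and Uhmk1 (0.39). Sc5d was among the 50 nearest genes of 5 members, Cyp51 of 4, and no gene of 6 or more.

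The myelin score, the mean of the standardised levels of 12 myelin genes, was associated with higher levels of 7 of the 8 genes. Fasn was the exception. In this fit 13.3% of all genes were called higher and 29.0% lower (limma, identifier format as covariate). Scd2 rose most, by 0.12 ± 0.01 log2 units (SE) per SD of the score (adjusted p = 9.5e-17), with r = 0.69 (rho 0.58, permutation p = 1e-05 for each, 0.67 without the 2 farthest libraries, 0.68 in hexadecimal and 0.71 in decimal libraries). Sqle, Insig1 and Hmgcs1 rose by 0.10 ± 0.02 each (SE), Fdft1 by 0.091 ± 0.016, Idi1 by 0.090 ± 0.021 and Lss by 0.062 ± 0.022. Fasn had a slope of 0.013 ± 0.021 (SE, limma adjusted p = 0.65). With the 3 scores fitted together the same number was called, 7 higher and 0 lower, beside 13.9% and 23.6% of all genes. With the length term as a covariate Fasn was called too, at 0.056 ± 0.010 (SE, limma adjusted p = 1.5e-06). Of the 16 other sterol synthesis genes 12 rose and 0 fell with the myelin score, led by Msmo1 (0.15 per SD) and Cyp51 (0.14), and of the 12 other fatty acid genes 8 rose, led by Elovl1 (0.17), and 1 fell, Acacb (-0.17). With Mbp alone in place of the score, 4 members were called higher and 1 lower, beside 22.9% and 47.1% of all genes.

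The astrocyte score, from 10 genes, divided the members. Sqle fell by 0.13 ± 0.01 (SE), Fdft1 by 0.13 ± 0.01 and Insig1 by 0.071 ± 0.016 log2 units per SD, and Fasn rose by 0.068 ± 0.020, Hmgcs1 by 0.041 ± 0.018 and Scd2 by 0.040 ± 0.014 (limma adjusted p between 2.2e-16 for Sqle and 0.037 for Hmgcs1). In this fit 51.1% of all genes were called higher and 21.8% lower. The 3 higher calls ended with the length term as a covariate, under which Fasn fell by 0.037 ± 0.011 (SE, limma adjusted p = 0.0033), Hmgcs1 had -0.0034 and Scd2 0.033 (adjusted p = 0.065), beside 40.7% of all genes called higher and 15.2% lower. They also ended under the median of ratios, with 33.2% of all genes higher and 31.6% lower. In decimal libraries alone Fasn had -0.039, Hmgcs1 -0.032 and Scd2 0.042 per SD, none of them called. The lower calls of Sqle and Fdft1 held in each of these settings. With the 3 scores together, Fasn, Hmgcs1, Idi1 and Scd2 were called higher and Sqle and Fdft1 lower, beside 39.8% and 17.8% of all genes, and the slope of Insig1 was 0.034, not called. Of the other sterol synthesis genes 12 fell and 0 rose with the astrocyte score, for example Tm7sf2 (-0.21) and Acat2 (-0.20). The score correlated with the length term at 0.46 and with the neuron score at -0.71.

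The neuron score, from 12 genes, was associated with higher Fdft1 (0.12 ± 0.01 log2 units per SD, SE), Sqle (0.12 ± 0.01) and Insig1 (0.11 ± 0.01), and the other 5 members were not called (limma adjusted p = 3e-13 for Fdft1 and 2.5e-10 for Insig1). In this fit 20.6% of all genes were called higher and 49.7% lower. Sqle correlated with the score at 0.59 (0.63 in hexadecimal, 0.49 in decimal libraries) and Fdft1 at 0.57 (0.59 in hexadecimal and 0.58 in decimal). With the 3 scores together 4 were called higher, Hmgcs1 joining at 0.066 ± 0.022 (SE), beside 15.5% and 24.6% of all genes. Under the median of ratios 6 were called higher, beside 34.4% of all genes higher and 38.4% lower, and with the length term 5, beside 18.7% and 44.8%. The other sterol synthesis genes again went with Sqle and Fdft1, 12 of 16 rising and 0 falling, such as Acat2 (0.20) and Mvd (0.16), whereas 6 of 8 genes of sterol removal fell, Abca1 by 0.30 per SD. Of all genes called under the median of ratios, 48.98% were higher with the myelin, 51.2% with the astrocyte and 47.2% with the neuron score. Scaled to the total, the shares were 31.5%, 70.1% and 29.3%, and a near-even split is largely built into the median of ratios. Of the 12 neuron genes, Stmn2 is among the nearest genes of Sqle and Fdft1. The 3 scores together shared 62.4% of the variance of Scd2, 58.1% of Sqle, 50.5% of Fdft1, 44.97% of Insig1, 34.9% of Hmgcs1, 21.5% of Idi1, 11.3% of Fasn and 7.72% of Lss.

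**Figure D5:**
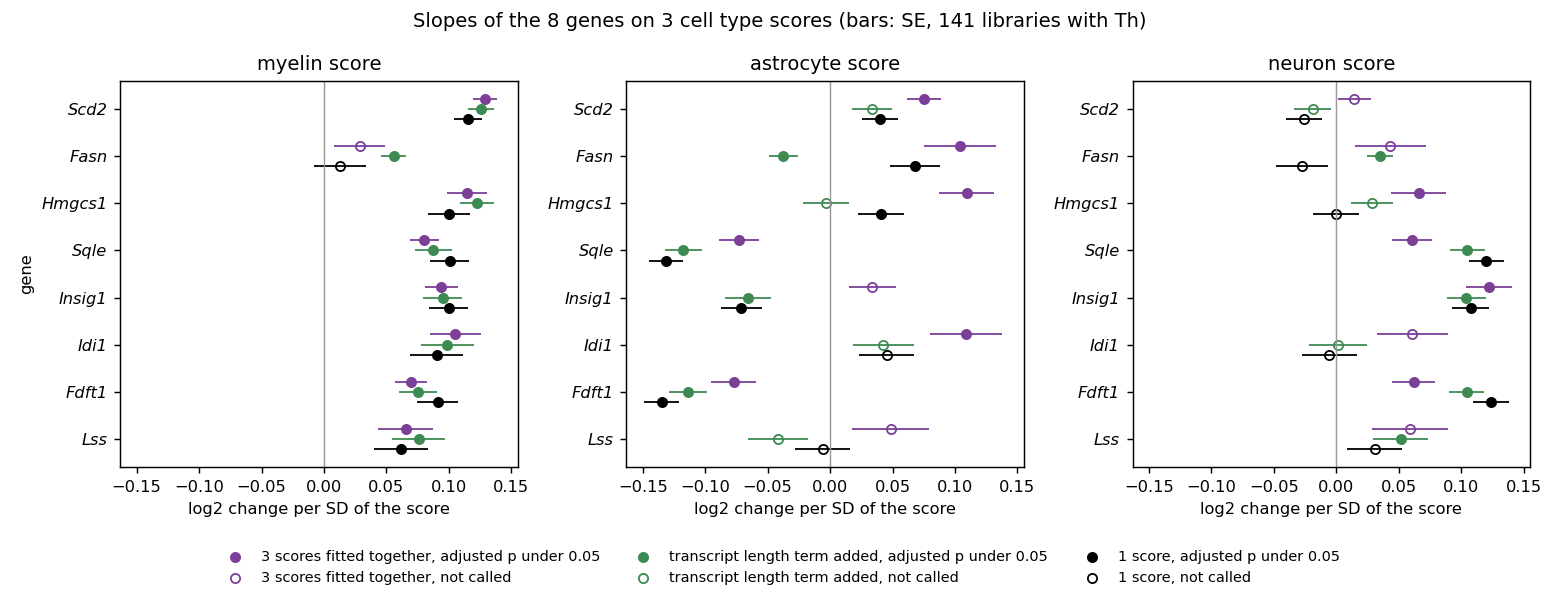
Slope of each gene in log2 units per SD of the myelin, astrocyte and neuron scores over the Th libraries, with SE bars, filled where the adjusted p was under 0.05, for 1 score (black), with the transcript length term added (green) and with the 3 scores together (purple). All myelin slopes lie right of 0, whereas Sqle and Fdft1 lie left of 0 on the astrocyte score and right of 0 on the neuron score.

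Slopes on the scores also differed between formats for Fasn and Hmgcs1. Fasn changed by 0.11 log2 units per SD of the astrocyte score in hexadecimal and -0.044 in decimal libraries (difference 0.15 ± 0.04, SE, limma adjusted p = 0.0047), and by -0.087 and 0.10 on the neuron score (difference -0.19 ± 0.04, adjusted p = 0.0055). Hmgcs1 changed by 0.065 per SD of the astrocyte score in hexadecimal and -0.037 in decimal libraries (difference 0.10 ± 0.04, adjusted p = 0.036). Beside these, 34.0% of all genes differed in their astrocyte slope and 25.3% in their neuron slope. The astrocyte score followed the length term at 0.59 in hexadecimal and 0.02 in decimal libraries. The part of the length term in these differences was not tested.

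Between the formats themselves differences were small. Fdft1 averaged 208 ± 33.6 CPM in hexadecimal and 190.4 ± 22.1 CPM in decimal libraries (SD), a log2 difference of 0.12 ± 0.04 (SE, limma adjusted p = 0.0087). Hmgcs1 averaged 409 ± 65.05 and 443 ± 54.2 CPM, a difference of -0.12 ± 0.04 (adjusted p = 0.0058), and Fasn 411 ± 72.6 and 441 ± 58.9 CPM, a difference of -0.11 ± 0.04 (adjusted p = 0.029). The ranges overlapped widely in each case. The other 5 were not called, and 14.3% of all genes were higher and 23.8% lower. Of the calls 37.5% were higher, and 49.1% under the median of ratios, which evens this split by its method. With the library total as a covariate 0 of the 8 were called by limma (2 at an unadjusted p under 0.05), beside 5.68% of all genes higher and 12.2% lower, and likewise 0 with the length term (2), beside 10.3% and 13.8%. Fdft1 then had a difference of 0.091 with the library total and 0.076 with the length term, Hmgcs1 -0.076 and -0.086, and Fasn -0.10 and -0.025.

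Among the remaining cell type lists, given as correlations with no test, the forming oligodendrocyte score ran from -0.34 (Fdft1) and -0.25 (Sqle) to 0.62 (Scd2), and the precursor (OPC) score from -0.14 (Sqle) to 0.46 (Scd2). Sqle and Fdft1 ran against endothelial genes at -0.66 and -0.72 and against meningeal fibroblast genes at -0.55 and -0.53. Fdft1 followed the dopamine neuron score at 0.43 and Insig1 at 0.40. With the microglia score the 8 values lay between -0.40 (Insig1) and 0.06 (Scd2), and with the circadian output score between -0.29 (Fdft1) and 0.05 (Fasn). The erythrocyte score ran from -0.40 (Insig1) to -0.08 (Fasn), the 2 tested ependyma and choroid plexus genes from -0.38 (Fdft1) to 0.10 (Fasn), and the cortical neuron score from -0.31 (Insig1) to -0.12 (Sqle).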

How the data were processed

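The authors deposited log2 values per gene and library, as the name of their table says, made with kallisto 0.48 per the submitters' processing notes. No label states the step from estimated counts to log2, so it was read from the values: after 2 to the power of the value minus 1, 56.4% of results between 0.5 and 100 lie within 0.001 of a whole number. These estimated counts were divided by the library total and used as log2(CPM + 1) in 152 libraries. The 8 genes and all lists were chosen with earlier results of these data known. limma 3.58.1 (R 4.3.3, trended eBayes, Benjamini-Hochberg) was fitted over 15536 genes in the 141 libraries with Th of at least 10 CPM. On simulated slopes on the myelin score (200 of 15536 genes changed, each gene drawn independently) 99% of 0.5 SD slopes were recovered, with 6.13% false calls. Real genes vary together, so these rates need not hold for them. Permutation p-values (100000, two-sided) were computed for 60 correlations. Named are the 8, the listed genes and the 5 nearest genes of each member. Of the 7 sterol uptake genes 6 passed the filter. Alternatives are scalings, filters, covariates and left-out libraries. Pseudoalignment can split reads of related genes, such as Idi1 and Idi2. Some genes of the lists entered the counts and are not reported singly here.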

Additional observations from a re-analysis of the deposited data

Results flagged for a closer look

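Differences between the identifier formats in the slope of 1 member on another, or on a cell type score, passed the test of the difference itself (limma, adjusted p under 0.05) in 12 cases. These were 9 of 28 pairs, beside 21.4% of all genes in the fits on all 8 genes. On the astrocyte score they were 2 of 8 genes, beside 34.0%, and on the neuron score 1 of 8, beside 25.3%. The shares on the scores thus lie below those of all genes. Slopes are in log2 units per SD of the predictor, hexadecimal minus decimal. On the astrocyte score the difference was 0.1518 for Fasn and 0.1016 for Hmgcs1, and on the neuron score -0.1918 for Fasn. With Fasn as predictor it was -0.1547 for Fdft1, -0.1504 for Sqle and 0.1406 for Idi1. With Hmgcs1 as predictor it was -0.1815 for Fdft1, -0.1687 for Sqle and -0.0902 for Insig1. Fdft1 differed by -0.1223 on Idi1, Idi1 by -0.1693 on Sqle and Lss by -0.139 on Fdft1. The formats also differ in how these genes follow the transcript length term, with r of 0.55 in hexadecimal and 0.04 in decimal libraries for Hmgcs1 and 0.27 and -0.45 for Idi1. The part of that term in the differences was not tested.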

How the results depend on the processing

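The 8 genes were tested under 15 alternatives. Of 840 slopes so recomputed 706 stayed on their side of the threshold (29 of them changed sign and were called in neither setting), 64 lost and 40 gained the call, and 30 turned sign where at least 1 of the settings called them. Of these, 14 turns and 11 gains came with no depth scaling, where 14515 to 15329 of 15535 genes were called higher with each member. The 37 higher and 4 lower calls among ordered pairs became 56 higher and 0 lower with no depth scaling. The lower calls became 0 with the 3 scores together, in decimal libraries, with every gene with any count and with normal scores of ranks. They also became 0 under the median of ratios, with the length term and without the libraries whose long genes lay below the short ones. Without changed or recovered labels 1 was left. The 4 lower calls came from the fits on Fasn, Sqle and Fdft1. In each of these fits the share of all genes called lower was also far smaller in decimal libraries. It was smaller with every gene with any count too, and nearly unchanged with normal scores of ranks. With the myelin score 4 were called higher in decimal libraries, beside 798 of 15524 genes higher and 1743 lower. With Mbp alone 4 were called higher and 1 lower, beside 22.9% and 47.1% of all genes. With the astrocyte score 0 were called higher in decimal libraries, beside 2358 of 15526 genes higher and 426 lower. Under the median of ratios and with the length term 0 were called higher too. With no depth scaling 8 were called higher and 0 lower, beside 15303 and 10 of all genes. With the neuron score 8 were called higher with no depth scaling, beside 14958 of 15524 genes higher and 2 lower. Under the median of ratios 6 were called higher and with the length term 5. In hexadecimal libraries 1 was called lower, beside 3145 of 15524 genes higher and 7630 lower. With Snap25 alone 1 was called lower, beside 3423 of 15535 genes higher and 7889 lower. Between formats 0 were called higher with the library total as a covariate, with no depth scaling and with the length term. The number called lower was 0 with the library total or the length term and 8 with no depth scaling. It was 1 with the 3 scores, with every gene with any count and under the median of ratios. It was also 1 without the libraries whose long genes lay below the short ones. Of all genes, 25 were higher and 14005 lower with no depth scaling, and 2338 and 3878 with the 3 scores. These counts were 2853 and 2959 under the median of ratios and 1976 and 3291 of 34364 with every gene with any count. Without the libraries whose long genes lay below the short ones they were 1681 and 2507. In the low-Th libraries 1 gene was lower without overlap under the median of ratios. Without depth scaling, where the library total moves all genes, the format difference was -0.21 for Fdft1, -0.30 for Insig1, -0.33 for Lss and -0.29 for Sqle. Slopes on Fasn were then 0.26 for Fdft1 and 0.28 for Sqle, on the astrocyte score 0.21 for Fdft1, 0.27 for Insig1, 0.26 for Lss and 0.22 for Sqle, and on the neuron score 0.34 for Fasn, 0.39 for Hmgcs1, 0.40 for Idi1 and 0.35 for Scd2. In decimal libraries the slope on Fasn was 0.061 for Fdft1, -0.048 for Idi1 and 0.058 for Sqle, on the astrocyte score -0.039 for Fasn and -0.032 for Hmgcs1, and on the neuron score 0.097 for Fasn. With the length term the slope on Fasn was 0.18 for Fdft1 and 0.14 for Sqle, on the astrocyte score -0.037 for Fasn and -0.0034 for Hmgcs1, and on the neuron score 0.035 for Fasn. With the 3 scores together it was 0.034 for Insig1 on the astrocyte and 0.066 for Hmgcs1 on the neuron score. Under the median of ratios the neuron slope was 0.042 for Hmgcs1 and 0.039 for Scd2, and the slope of Fasn on Mbp, in place of the myelin score, was -0.085. The causes were not tested. No paired analysis was possible because no replicate number in the labels links libraries. The length term, the setting without the libraries whose long genes lay below the short ones and the pair slopes by format were added after the data were seen, and the length lists also differ in function. No alternative left out single libraries.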
